A study of Mus musculus with 2 samples.

Results

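The genes described here are 6 signal transducers and activators of transcription (Stat2, Stat3, Stat4, Stat5a, Stat5b and Stat6) and 3 Janus kinases (Jak1, Jak2 and Jak3). They were picked by gene symbol, with earlier results of these data known, and all 9 were found among the 55246 loci of the deposited table. RNA sequencing compared regulatory T cells (Treg cells, the suppressive CD4 lineage specified by the transcription factor Foxp3) of the colon lamina propria, the tissue layer under the gut epithelium, between female mice of the genotypes WT and Exon2KO. Exon2KO is the label for a Foxp3 allele without its second exon, called Foxp3∆2 in the series title. There was 1 library of each genotype. The labels give no other allele, agent, time or age, and they do not say how the cells were sorted or whether mice were pooled. The spread between mice is therefore unknown for every value, no p-value was computed, and the intervals cover counting error only.

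Cytokine receptors of the class served by these genes have no enzyme of their own. A Janus kinase bound to the receptor phosphorylates the receptor tail and then a tyrosine near the end of a STAT protein, after which STAT dimers enter the nucleus and bind DNA. In Treg cells STAT5, activated by interleukin 2, sustains Foxp3 expression, and STAT3 is known for its part in the control of type 17 responses in the gut. STAT4 acts downstream of interleukin 12, STAT6 downstream of interleukin 4, and STAT2 downstream of the type I interferons.

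The tyrosine codon that the kinases act on is shown for each STAT member, since it is the point at which the gene families meet. Capitals mark that codon, with 15 coding bases on either side, 5′ to 3′ on the coding strand.
Stat2: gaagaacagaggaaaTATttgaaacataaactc
Stat3: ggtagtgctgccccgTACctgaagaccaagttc
Stat4: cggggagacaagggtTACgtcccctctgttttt
Stat5a: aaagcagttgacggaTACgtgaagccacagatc
Stat5b: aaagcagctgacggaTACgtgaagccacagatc
Stat6: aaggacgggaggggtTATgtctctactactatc
In the kinases the matching display is the pair of adjacent tyrosine codons in the activation loop of the kinase domain, again in capitals.
Jak1: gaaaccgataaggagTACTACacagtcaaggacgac
Jak2: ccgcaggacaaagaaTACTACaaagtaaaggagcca
Jak3: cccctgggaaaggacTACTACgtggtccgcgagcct
The sequences are from GENCODE M21 transcripts on GRCm38. The Stat3 codon is number 705 of its coding sequence, in exon 22 of 24 (chr11:100889915-100889917, minus strand). The Stat5a codon is number 694, in exon 18 of 20 (chr11:100881755-100881757, plus strand), and the Stat5b codon is number 699, in exon 17 of 19 (chr11:100784285-100784287, minus strand). The Stat4 codon is number 693 (chr1:52105238-52105240, plus strand), the Stat6 codon 641 (chr10:127658226-127658228, plus strand) and the Stat2 codon 689 (chr10:128285684-128285686, plus strand). The kinase pairs start at codon 1033 in Jak1 (chr4:101156428-101156433, minus strand), 1007 in Jak2 (chr19:29302031-29302036, plus strand) and 976 in Jak3 (chr8:71686085-71686090, plus strand). Over these 33 bases Stat5a and Stat5b differ in 1 base.

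All 9 genes had a lower level in the Exon2KO library, and none was 2-fold apart. The log2 ratio of Exon2KO over WT ran from -0.78 for Stat5a to -0.15 for Stat2, with a median of -0.40, so that the median member stood at 75.8% of its WT level. Ratios use library sizes scaled by TMM (trimmed mean of M values, which sets the bulk of genes to no difference) and a prior count of 2. Over the 17363 genes with at least 10 reads in both libraries together, the median log2 ratio was 0.0035 and 49.7% were lower in Exon2KO. At least 2-fold apart in either direction were 17.5% of these genes, against 0 of the 9 members. At least 1.5-fold apart were 32.1% of them, against 2 members, Stat5a and Stat3. The 95% interval lay wholly below 0 for 9 members and for 24.6% of all these genes. The members are deeply counted, with 2218 to 33102 reads over both libraries. Among the 4740 genes with at least 1000 reads the median log2 ratio was -0.04, 56.2% were lower in Exon2KO, 40.7% had an interval below 0, 11.8% were at least 1.5-fold apart and 4.73% at least 2-fold.

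**Figure D1:**
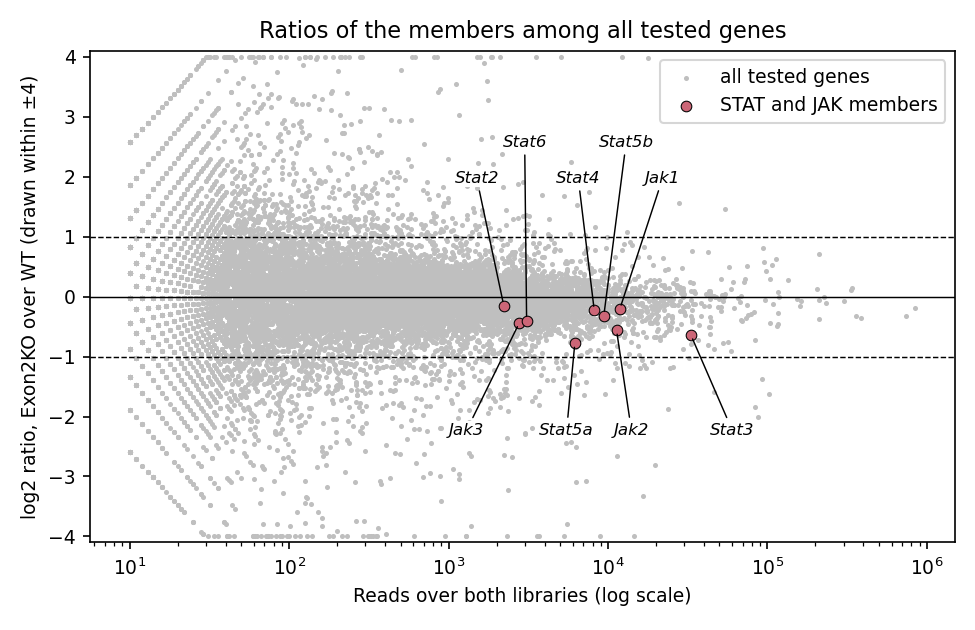
Each grey point is 1 of the 17363 genes with at least 10 reads, by its reads over both libraries (log axis) and its log2 ratio of Exon2KO over WT, drawn at the edge where it lies beyond ±4; red points are the 9 members and dashed lines mark 2-fold. All members lie below 0 and above the lower dashed line, between -0.78 and -0.15.

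Members were compared with each other as levels per length, in the deposited FPKM, which divide reads by the length of the gene and the depth of the library. In the WT library Stat3 was highest at 133 FPKM, followed by Jak2 (84.2), Stat4 (71.8), Stat5b (59.2), Jak1 (55.2), Stat5a (34.5), Stat6 (25.1), Jak3 (18.8) and Stat2 (12.4). The counting intervals of the ratio between neighbours in this order all excluded 1, the closest being Stat5b over Jak1 at 1.07 (95% interval 1.03 to 1.11). In the Exon2KO library Stat3 was again first at 86.2 FPKM and Stat2 last at 11.3. Stat4 (61.8) came before Jak2 (57.7) there, and Jak1 (48.3) could not be told from Stat5b (48.1), with a ratio of 1.01 (0.966 to 1.05). Stat5a (20.3) and Stat6 (19.2) were likewise not separable, at 1.06 (0.990 to 1.13). Among protein-coding genes of the table, 98.1% had a lower FPKM than Stat3 in WT and 85.5% had a lower FPKM than Stat2, so that all members were well expressed. FPKM divides by the deposited gene length, which spans 3872 bases for Stat4 to 9527 for Stat3, and part of the order rests on that length. Per base of the single coding transcript whose codon is printed above, a measure added after seeing the data, Stat3 remained first in each library and Stat6, Jak3 and Stat2 last, in that order. Stat3 stood at 1.58 times the level of Jak2 in WT and 1.49 times in Exon2KO per deposited gene length, and at 3.34 and 3.15 times per base of transcript. The middle of the order changed, with Stat4 second in each library. By that measure the pairs not separable in FPKM in Exon2KO stood further apart. In reads per kilobase of transcript Jak1 was at 1132 and Stat5b at 812, and Stat5a at 594 and Stat6 at 356.

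**Figure D2:**
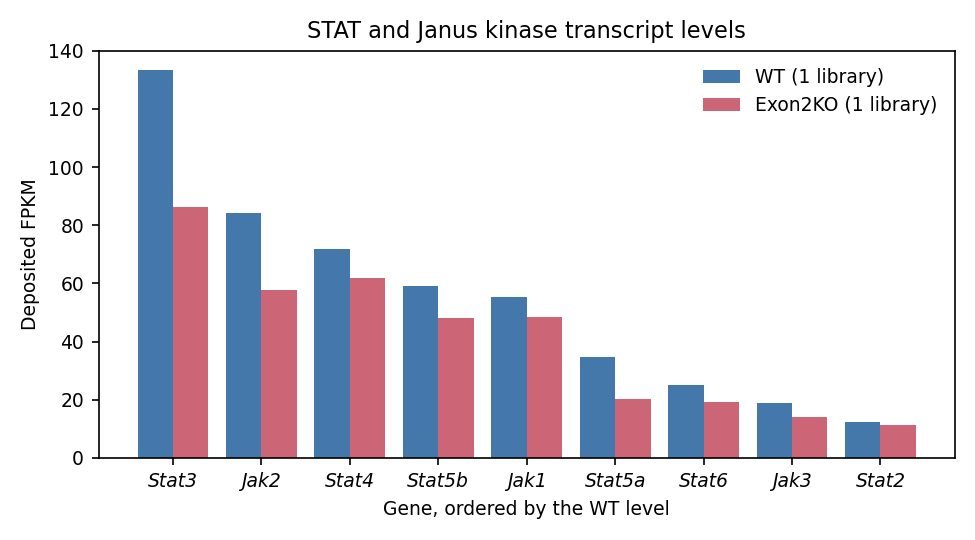
Bars give the deposited FPKM (linear axis from 0) of each member in the WT library (blue) and the Exon2KO library (red), 1 library each, with genes ordered by the WT level. Every red bar is shorter than its blue neighbour, and Stat3 is highest in both libraries (133 and 86.2).

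Among the kinases, Jak2, which serves interferon gamma, interleukin 12 and interleukin 23 receptors, had the highest FPKM of the 3 in both libraries. That place depends on the length used. Per deposited gene length Jak2 stood at 1.52 times the level of Jak1 in WT and 1.20 times in Exon2KO. Per base of transcript Jak2 stood at 1.04 times in WT (0.99997 to 1.07), an interval that includes 1, and at 0.812 times in Exon2KO (0.780 to 0.844). By that measure the pair could not be ordered in WT, and in Exon2KO the order turned. Jak2 (ENSMUSG00000024789, chr19:29251828-29313080) had 6682 WT reads and 4621 Exon2KO reads, at a log2 ratio of -0.56 (-0.61 to -0.50). Jak3 (ENSMUSG00000031805, chr8:71676296-71690575), the kinase of the common gamma chain, had 1584 and 1189 reads, at -0.44 (-0.55 to -0.33). Jak1 (ENSMUSG00000028530, chr4:101152367-101265282), which pairs with Jak3 on common gamma chain receptors and also serves the interleukin 6, interleukin 10 and interferon receptors, had 6296 and 5554 reads, at -0.21 (-0.26 to -0.16). Jak1 thus stood nearer to its WT level than either other kinase. The difference between the log2 ratios of Jak1 and Jak2 was 0.35 (0.28 to 0.43), and between Jak1 and Jak3 0.23 (0.11 to 0.35). The interval for Jak2 against Jak3 included 0, at -0.12 (-0.24 to 0.0030). In the summed FPKM of these 3 kinases the share of Jak2 was 53.2% in WT and 48.1% in Exon2KO, and that of Jak1 was 34.9% and 40.2%. Per base of transcript the shares were 44.2% and 39.1% for Jak2 and 42.7% and 48.2% for Jak1.

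Stat3 (ENSMUSG00000004040, chr11:100885098-100939540, minus strand) transmits interleukin 6, 10, 21 and 23. It had 20036 reads in WT and 13066 in Exon2KO, or 1277 and 817 CPM, which are reads after division by TMM-adjusted depth. The log2 ratio was -0.64 (-0.68 to -0.61), which is 64.0% of the WT level. Stat3 made up 39.6% of the summed FPKM of the 6 STAT members in WT and 34.9% in Exon2KO, and 51.5% and 46.9% per base of transcript.

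Stat5a and Stat5b encode near-identical proteins that respond to interleukin 2, 7 and 15. Stat5a (ENSMUSG00000004043, chr11:100859351-100885169, plus strand) had 3883 reads in WT and 2308 in Exon2KO, with the lowest ratio of the 9 members, -0.78 (-0.85 to -0.70). Stat5b (ENSMUSG00000020919, chr11:100780731-100850724, minus strand) had 5175 and 4235 reads, at -0.32 (-0.37 to -0.26). The difference between their log2 ratios, Stat5a minus Stat5b, was -0.46 (-0.56 to -0.37). Stat5a stood at 0.583 times the FPKM of Stat5b in WT and at 0.423 times in Exon2KO per deposited gene length. Per base of transcript Stat5b stood at 0.994 times the level of Stat5a in WT (0.953 to 1.04) and at 1.37 times in Exon2KO (1.301 to 1.44), so the pair could not be ordered in WT. Their coding sequences are 90.7% identical over 2346 aligned bases, and the longest identical run is 324 bases. The 120 coding bases around the start of that run, from base 481 of each coding sequence, show how little separates them, with capitals for the base that differs.
Stat5a: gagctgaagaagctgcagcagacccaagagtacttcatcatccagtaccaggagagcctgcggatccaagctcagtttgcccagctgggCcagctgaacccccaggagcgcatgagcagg
Stat5b: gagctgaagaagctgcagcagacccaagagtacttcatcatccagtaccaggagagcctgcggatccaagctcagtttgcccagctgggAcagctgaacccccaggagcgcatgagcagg
Of all windows of 100 bases in the Stat5a transcript, 6.99% occur unchanged in a Stat5b transcript, and 15.8% of windows of 50 bases do. The read length and the treatment of reads that match both genes are not given in the sources used here, so the division of reads between Stat5a and Stat5b is uncertain. No window of 100 bases in the other 7 members was shared with another member.

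Stat5b, Stat5a and Stat3 lie side by side on chromosome 11. Stat5b and Stat5a are divergent with 8626 bases between them, and the 3′ ends of Stat5a and Stat3 overlap by 72 bases on opposite strands. The outer gene Stat5b had the ratio nearest to 0 of these 3 neighbours, and the pair with overlapping ends, Stat5a and Stat3, had the lowest ratios of all 9 members. Stat3 minus Stat5a was 0.13 (0.05 to 0.21). Whether counting used strand is not given in the sources used here, so reads in the 72 shared bases are uncertain for both genes.

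Stat4 (ENSMUSG00000062939, chr1:51987148-52107189) had 4385 WT reads and 3809 Exon2KO reads, at a log2 ratio of -0.23 (-0.29 to -0.17). Its share of the summed STAT FPKM was 21.3% in WT and 25.04% in Exon2KO, or 17.1% and 20.7% per base of transcript. Stat3 stood at 1.86 times the FPKM of Stat4 in WT and at 1.39 times in Exon2KO, and per base of transcript at 3.02 and 2.27 times. Stat3 minus Stat4 was -0.41 (-0.48 to -0.34) on the log2 scale. Stat6 (ENSMUSG00000002147, chr10:127642986-127660957) had 1741 and 1344 reads, at -0.40 (-0.50 to -0.30), the median of the 9. Stat2 (ENSMUSG00000040033, chr10:128270559-128292849), which joins Irf9 in the interferon-activated complex ISGF3, had 1156 and 1062 reads, at -0.15 (-0.27 to -0.03). Stat2 was the least abundant member in each library and the one nearest to its WT level. Loci that overlap Stat4, Jak3 and Stat6 were also counted. Gm28177, which overlaps Stat4 on the same strand, had 55 and 60 reads, Insl3 at the end of Jak3 had 13 and 4, and Nab2, which overlaps Stat6 by 40 bases on the other strand, had 316 and 409.

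Differences between members do not depend on how libraries are scaled, since any scaling moves all ratios alike. Of the 36 pairs of members, 30 had a difference in log2 ratio whose 95% counting interval, not adjusted for the number of pairs, excluded 0. The largest was Stat2 minus Stat5a, at 0.63 (0.49 to 0.77). The 6 pairs whose interval included 0 were Jak1 with Stat2, Jak1 with Stat4, Stat2 with Stat4, Jak2 with Jak3, Jak3 with Stat6, and Stat5b with Stat6. How many pairs of other genes counted as deeply would exclude 0 was not computed, so the 30 of 36 does not set the members apart. Under total-count scaling all 9 ratios stayed below 0, from -0.67 for Stat5a to -0.04 for Stat2, while the median of all genes with at least 10 reads moved from 0.0035 to 0.108. The Stat2 interval then included 0 (-0.16 to 0.08), leaving 8 intervals below 0.

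**Figure D3:**
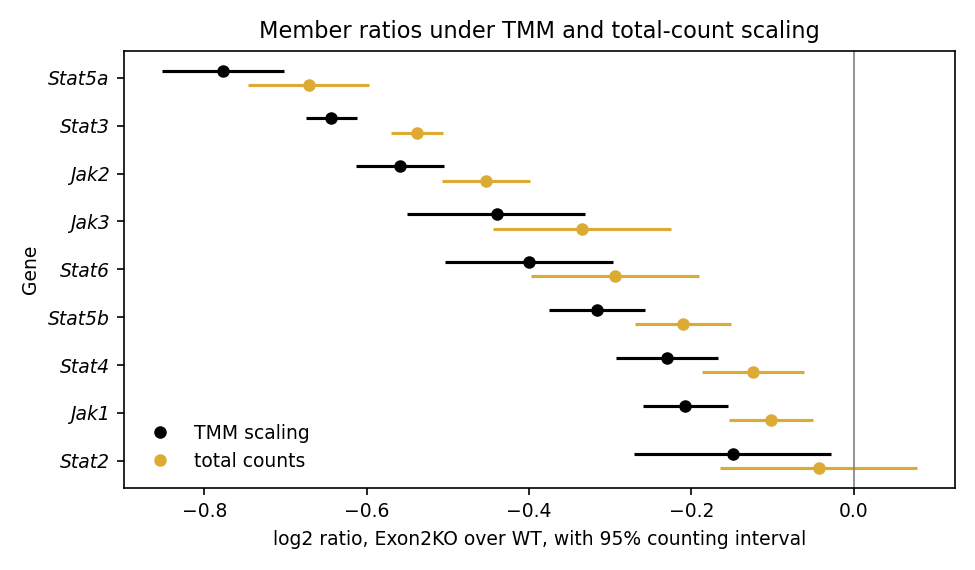
Points give the log2 ratio of Exon2KO over WT for each member under TMM scaling (black) and total counts (yellow), and lines the 95% counting interval. Genes keep their order from Stat5a to Stat2 under each scaling, and the interval that reaches past 0 is that of Stat2 with total counts.

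The authors' deposited table gives log2 fold changes below 0 for all 9 members. In the authors' deposited table the lowest adjusted p-value among them is 0.433, for Stat5a, and 0 of the 9 are below 0.05, against 4.58% of the 22447 genes it tests. The spread between samples behind those p-values is not given in the sources used here.

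Marker genes moved too, and bulk RNA cannot tell fewer cells of a type from less RNA per cell. Foxp3 had 6991 reads in WT and 20946 in Exon2KO, which is no check of the genotype because the count covers the whole gene. All 8 Treg and all 8 T cell markers had reads in both libraries. The summed level of the 8 T cell markers was 6001 CPM in WT and 4457 in Exon2KO, 74.3% of WT, with 6 of 8 below 0 and a median log2 ratio of -0.32. Cd2 was the most counted of them (32787 and 19603 reads), and without it the sum was 82.6% of WT. The 2 above 0 were Cd3e (5154 reads in WT and 5262 in Exon2KO) and Cd4 (4593 and 5367). Of the 6 below 0, Cd5 was at least 2-fold lower (5894 and 2908 reads, -1.05), and the others were within 2-fold. The summed level of the 9 members was 3246 and 2326 CPM, 71.7% of WT, and 76.6% without Stat3, the most counted member. The 8 Treg markers summed to 13362 and 12829 CPM, of which Ctla4 had 79358 and 132229 reads. Of these 8, 1 was at least 2-fold higher (Foxp3) and 4 were lower (Ikzf2, Lrrc32, Tnfrsf18 and Tnfrsf4), with a median log2 ratio of -0.86. The 10 epithelial markers went from 80.5 to 371 CPM in sum, with 7 of 10 at least 2-fold higher. CD8 and natural killer markers went from 3197 to 4054 CPM in sum, most of it Gzmb (43499 and 63649 reads). In that list 5 of 8 genes were below 0 and 3 were at least 2-fold lower (Gzma, Prf1 and Cd8a) and 1 higher (Ncr1, with 0 and 10 reads), with a median of -0.60. B and plasma cell markers went from 7831 to 7298 CPM, nearly all of it Jchain (120089 and 113723 reads), with 1 of 7 genes at least 2-fold higher, 2 lower and a median of -0.36. Stromal and endothelial markers went from 75.6 to 71.5 CPM, most of it Pecam1 (917 and 834 reads), with 3 of 8 higher, 0 lower and a median of 0.21. Myeloid markers went from 39.8 to 49.3 CPM, with 0 of 4 higher, 1 lower and a median of 0.11. Itgax had 0 reads in each library, and S100a8, S100a9, Cdh5 and Ncr1 had 0 in WT. The part of these cells in the ratios of the STAT and JAK genes was not tested.

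Genes of the pathway were taken as lists of receptors, feedback inhibitors and STAT-linked targets. Over all these lists, of 105 distinct genes with at least 10 reads, 13 were at least 2-fold higher in Exon2KO and 17 lower (28.6% in all), with a median log2 ratio of -0.21. Over all genes with at least 10 reads the shares were 9.38% higher and 8.14% lower. Receptors come first. The 9 common gamma chain and interleukin 4 receptor genes are linked mainly to JAK1, JAK3, STAT5 and STAT6. Of these 9, 0 were at least 2-fold higher and 2 lower, with a median of -0.51. The most counted, Il21r (25013 and 17880 reads), receives interleukin 21, which Stat3 transmits. Il9r, the interleukin 9 receptor, fell from 132 to 17 reads (-2.84, -3.81 to -2.25). Il2rg, the common gamma chain itself, had 14406 and 9921 reads, and Il2rb, the interleukin 2 receptor beta chain, had 9501 and 13120. Among 11 receptor genes of the interleukin 6, 10 and 12 families 2 were higher and 1 lower, with a median of 0.09. Il23r, which signals through JAK2 and STAT3, rose from 326 to 1172 reads (1.81, 1.64 to 2.00), and Il10ra, the interleukin 10 receptor chain that recruits STAT3, fell from 850 to 281 (-1.62, -1.82 to -1.43). Il12rb2, the chain that recruits STAT4, had 71 and 77 reads. Of 4 interferon receptor genes with enough reads 1 was lower, Ifnar1, from 3174 to 1524 reads (-1.08, -1.17 to -0.997), and the list median was -0.27. Of 6 receptor genes linked mainly to JAK2 in other lineages 1 was higher and 1 lower, on at most 136 reads in a library, with a median of 0.17.

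Of the 19 feedback inhibitors (SOCS and PIAS genes, phosphatases, the adaptor Sh2b3 and the protease Usp18, which restrain the pathway), 1 was at least 2-fold higher and 2 lower, with a median of -0.22. Socs2 went from 1857 to 3900 reads (1.04, 0.96 to 1.12), Socs5 from 431 to 160 (-1.44, -1.73 to -1.19) and Usp18, which blocks the type I interferon receptor, from 520 to 190 (-1.47, -1.73 to -1.24). Other inhibitors were within 2-fold. Socs3, the inhibitor of gp130 receptors, had 3526 and 2314 reads, Socs1 had 2454 and 1630, and Cish, a STAT5 target, had 4784 and 4176.

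Genes known to be induced through each STAT were then counted beside the transcript of that STAT. Of 15 genes linked to STAT3, 8 were at least 2-fold higher and 0 lower, with a median log2 ratio of 1.03, while Stat3 itself was at -0.64. Among those whose reads in the 2 libraries reached 100 in sum, the 5 with the largest ratios were Il17a (190 and 12014 reads), Il17f (34 and 1551), Il22 (45 and 269), Il23r and Il10 (14174 and 39614). In this list 10 genes were above 0 and 5 below. The 5 below 0 included Rora (19059 and 10568 reads, -0.88), Batf (7261 and 4159, -0.83), Socs3 and Bcl3 (4587 and 3392), all within 2-fold. Of 14 genes linked to STAT5, 2 were higher, Socs2 and Foxp3 (1.56), which is itself the gene altered in Exon2KO. In this list 1 was lower, the survival gene Bcl2l1, from 1664 to 530 reads (-1.67, -1.82 to -1.54). The median of the 14 was -0.29. Of 9 genes linked to STAT4, 0 were higher and 2 lower, with a median of 0.05. The lower pair were Map3k8 (-1.30) and Il18rap (-1.10), while Ifng had 91 and 85 reads. Of 8 genes linked to STAT6, 1 was higher and 2 lower, with a median of -0.15. Ccr8, a chemokine receptor, fell from 5168 to 378 reads (-3.79, -3.95 to -3.65), and Gata3, a transcription factor, from 5347 to 954 (-2.51, -2.61 to -2.41). The member that was higher, Il13, had 1 and 9 reads.

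Of 19 interferon-induced genes linked to STAT2, 0 were at least 2-fold higher and 6 lower, with a median of -0.62 and 16 of 19 below 0, while Stat2 itself was at -0.15. Ifit3 went from 194 to 70 reads (-1.47), Usp18 is given above, and Oas1a went from 1220 to 582 (-1.09, -1.24 to -0.95). Irf9, the partner of Stat2, had 2987 and 2858 reads. Set beside the share of all genes at least 2-fold lower, 8.14%, these are counts of lists chosen with earlier results of the same libraries known, and each gene also answers to other factors.

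**Figure D4:**
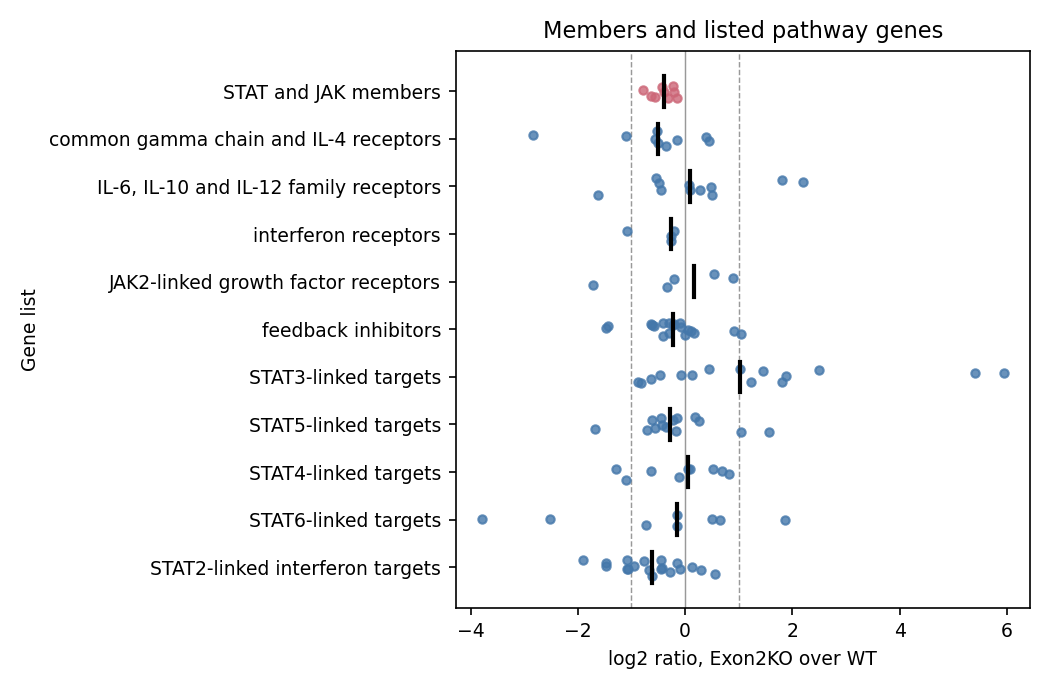
Each point is the log2 ratio of Exon2KO over WT of a gene with at least 10 reads, by list, with black bars at list medians and dashed lines at 2-fold; a gene with 0 reads in 1 library (Epor) is not drawn. The members lie between -0.78 and -0.15, and the STAT3-linked list reaches from below 0 to 5.94 (Il17a).

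Promoter sequence was examined because all members were lower together. RefSeq windows of 250 bases before to 50 after the start site (GRCm38.p6) were found for 9 of 9 members, 12 windows in all. The STAT motif TTCNNNGAA, searched on both strands, occurred in 0 of the 12 and in 8.30% of all 32851 windows. The wider motif TTCNNNNGAA occurred in 1 of the 12 and in 6.95% of all, the interferon response motif GAAANNGAAA in 2 and in 3.44%, and the forkhead motif GTAAACA in 0 and in 3.65%. The Stat2 window, which held a match of GAAANNGAAA starting at -222 and of TTCNNNNGAA at -210, is shown for chr10:128270248-128270547 (plus strand), with these matches in capitals.
Stat2: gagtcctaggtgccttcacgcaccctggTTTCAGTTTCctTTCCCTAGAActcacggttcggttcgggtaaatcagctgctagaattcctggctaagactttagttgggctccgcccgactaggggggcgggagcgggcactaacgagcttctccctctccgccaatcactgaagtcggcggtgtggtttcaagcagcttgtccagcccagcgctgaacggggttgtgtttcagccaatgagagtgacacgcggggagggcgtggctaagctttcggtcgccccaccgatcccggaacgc
The other GAAANNGAAA match lay at -97 in the second of the Stat4 windows. A match of letters is no evidence of binding, and a window without one says nothing of the factor.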

How the data were processed

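Gene-level values of 2 RNA-seq libraries, 1 per genotype, were used. Per the labels' protocols, column-purified RNA entered an NEBNext Ultra preparation. The submitters' processing notes name HISAT2 2.0.5, StringTie 1.3.3b, featureCounts 1.5.0-p3, DESeq2 1.16.1 and mm10, without roles. The authors deposited raw read counts (16281133 in WT, 15412425 in Exon2KO), the input to all ratios. The deposited FPKM values equal FPKM recomputed from counts, length and totals times 1.03 (WT) and 0.969 (Exon2KO). The deposited scaled count signal was not used further. The deposited log2 fold changes and p-values are quoted as the authors' own. Member coordinates, as deposited, matched GENCODE M21 for 9 of 9 members.

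With 1 library a group edgeR's quasi-likelihood test cannot be fitted. TMM factors came from edgeR 4.0.16 in R 4.3.3, log2 ratios used a prior count of 2, and 95% intervals are exact binomial (Clopper-Pearson) limits on the Exon2KO part of a gene's reads, turned into ratios with no prior count. Intervals of differences between members use the normal approximation to log counts. A gene was called when at least 2-fold apart, among genes whose reads in the 2 libraries together reached 10. A count of 0 allows up to 3 reads, and reads are not independent molecules. From each pathway list at most 5 genes at least 2-fold apart with at least 100 reads over both libraries were named, by size of ratio; other listed genes were named after their values were seen. The members and lists were chosen with earlier results of these data known. Ratios and intervals were tried on data simulated with counting error only, which is what the intervals assume, so spread between mice was not tested. Alternatives covered scaling (with DESeq2 1.42.0 size factors among them), prior count, read minimum, fold threshold, deposited FPKM and, added after seeing the data, transcript length and sums without the most counted gene. Python 3.11.15 with scipy 1.17.1 was used.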

Additional observations from a re-analysis of the deposited data

How the results depend on the processing

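Total counts moved the median log2 ratio of the members from -0.40 to -0.29, as the shift of that scaling implies; DESeq2 size factors, upper quartile, TMM without immunoglobulin, mitochondrial and haemoglobin genes, prior counts of 0.5 and 8, and the deposited FPKM (with 0.1 added) left it between -0.40 and -0.38. All 9 members stayed below 0 under each of these settings. With a fold threshold of 1.5, 2 members and 47 pathway genes were past it, against 0 and 30 at 2-fold, as the threshold itself implies. The other settings, read minimums included, left 0 members and 23 to 31 pathway genes at least 2-fold apart. Total counts lowered the share of all genes below 0 from 49.7% to 40.3%. No paired analysis was possible because each genotype has 1 library, and no library could be left out. Levels per base of transcript, added after seeing the data, turned the log2 level ratio of Jak2 over Jak1 in Exon2KO from 0.26 to -0.30 and of Stat5b over Stat5a in WT from 0.78 to -0.0087, and raised that of Stat3 over Jak2 in WT from 0.66 to 1.74. Depth limits the listed genes with few reads and, among the members, the sign of Stat2 under total counts and the 6 pairs whose intervals include 0.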
